A study of Mus musculus with 10 samples.

Results

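The 36 genes described here make or move sterols and fatty acids: 18 enzymes of cholesterol synthesis, 6 genes of the SREBP control circuit, 6 of fatty acid synthesis, 4 of the LXR and efflux arm and 2 of lysosomal cholesterol export. They were taken by symbol from a deposited table of RNA-seq counts with 22457 rows. All 36 had a row, and all 36 passed the filter on low counts that left 13528 tested genes. The RNA came from organoids grown in a gel from mouse (Mus musculus) tracheal basal cells, which renew the airway lining. Organoids of Ctrl mice were compared with those of M3-CKO mice, in which Mettl3 is knocked out according to the series title, with 3 RNA-seq libraries for each genotype. METTL3 protein catalyses the writing of N6-methyladenosine on messenger RNA. All organoids were harvested on day 14 and shared the same media, which held insulin, retinoic acid and cholera toxin, with fetal serum in the growth medium and albumin in its place in the differentiation medium. The sources used here do not state the Cre driver, the strain, the age of the mice, the deleted exons or the day on which the medium was changed, nor whether replicates were separate animals or cultures. P-values therefore reflect only how these libraries vary, and part of that variation may be technical.

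Cholesterol is built from acetyl-CoA through mevalonate, squalene and lanosterol. When membranes of the endoplasmic reticulum run low in sterol, SCAP carries the SREBP transcription factors to the Golgi, where they are cut and released, and they switch on the genes of this pathway, of fatty acid synthesis and of lipoprotein uptake. INSIG proteins hold the complex back when sterol is plentiful, while oxidised sterols activate the LXR receptors, which promote efflux through ABCA1 and ABCG1. Epithelial cells need these lipids for their membranes.

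Total counts ran from 8906375 to 10485922 per library, and 10 CPM (counts scaled to a common library size) rested on 87.6 to 103.6 counts. Where 3 values of a genotype are listed, they follow the order of replicates 1, 2 and 3. Mettl3 itself read 15.0, 17.0 and 18.9 CPM in Ctrl against 11.1, 10.3 and 9.87 CPM in M3-CKO. The groups did not overlap, and the difference missed the edgeR threshold (log2 fold change -0.70, SE 0.21, adjusted p = 0.12). The DESeq2 Wald test called it (adjusted p = 0.049), as it called 4.31% of all tested genes lower, and limma-voom did not (adjusted p = 0.13). Reads from outside the deleted part may be counted, which was not tested. M3-CKO replicate 3 stood apart from the other libraries: across all tested genes its Pearson r of log2 CPM with M3-CKO replicates 1 and 2 was 0.919 and 0.908, where these 2 shared an r of 0.985. Over the 36 genes alone the same values were 0.957, 0.961 and 0.998 (genes are not independent replicates, so these values describe the libraries). With Ctrl replicates 1, 2 and 3, M3-CKO replicate 3 had an r of 0.922, 0.925 and 0.919 across all tested genes. Over the 36 genes these were 0.971, 0.967 and 0.953, so it was closer to Ctrl replicates 1 and 2 than to its own group. Counts of called genes are therefore also given without that library.

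Sums of cell type markers differed between the same libraries. The 10 basal cell markers summed to between 2768 and 3421 CPM in the Ctrl libraries and to 1141, 1059 and 2446 CPM in M3-CKO. The 10 club cell markers summed to between 6980 and 7606 CPM in Ctrl and to 3609, 3036 and 9812 CPM in M3-CKO, with Cbr2 and Cyp2f2 as the most abundant. Krt5, a defining basal keratin, fell with an edgeR log2 fold change of -1.82 (adjusted p = 0.024). Of the 10 basal markers edgeR called 3 lower, the keratins Krt5, Krt14 and Krt15, and did not call the other 7. Groups overlapped for 6 of the 10, among them Trp63 and Ngfr, and Pdpn and Icam1 had ratios of the means of 0.96 and 0.99. Scgb1a1, the defining club cell secretoglobin, went the other way from the club sum of M3-CKO replicates 1 and 2 and rose from 5.57, 4.33 and 2.81 CPM in Ctrl to 83.2, 37.5 and 358.5 CPM in M3-CKO (edgeR log2 fold change 5.23, adjusted p = 0.033). The 9 of 10 hillock and squamous cell markers with a row summed to 1096, 1160 and 1070 CPM in Ctrl and to 496.8, 454.8 and 333.2 CPM in M3-CKO, with Krt4 and Sprr1a called lower (edgeR adjusted p = 0.027 and 0.039). Goblet cell markers summed to 96.0 to 193.5 CPM in Ctrl and 421.8 to 1055 CPM in M3-CKO, of which Gp2 alone made up 74.1 and 576.3 CPM on average; Muc5ac, Muc5b, Agr2 and Spdef had overlapping groups. Ciliated cell markers summed to 23.7 to 67.1 CPM in Ctrl and 57.1 to 107.6 CPM in M3-CKO. Of these sums Foxj1 alone made up 18.5 and 53.5 CPM on average. All 7 tested ciliated markers had overlapping groups and were not called, with 5 positive and 2 negative log2 fold changes. For other cell types, 5 of 9 mesenchymal markers had a row and reached 4.59 to 13.3 CPM in Ctrl and 2.40 to 3.86 in M3-CKO. The 5 of 8 immune markers with a row reached 535.8 to 1434 CPM in Ctrl and 457.0 to 792.8 in M3-CKO, of which Lyz2, a lysozyme that epithelium can also express, made up 876.3 and 512.7 CPM on average. Of 6 adipocyte markers only Lpl had a row, with 0 counts in all Ctrl libraries and in M3-CKO replicate 2 and at most 1.12 CPM elsewhere. The part of cell composition in the results below was not tested, and in bulk RNA fewer cells of a type and less RNA per cell cannot be told apart.

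Of the 18 enzymes of cholesterol synthesis, 3 rose in M3-CKO organoids and 0 fell, while 9 had overlapping groups. All 18 had a positive log2 fold change (M3-CKO over Ctrl), with a median of 0.64 against 0.02 over all tested genes, of which 51.9% were positive. The 3 were Msmo1, Pmvk and Sc5d. Acat2, Tm7sf2 and Ebp had a negative log2 fold change without M3-CKO replicate 3. In edgeR's quasi-likelihood test with Benjamini-Hochberg adjustment, 1.74% of all tested genes were called higher and 1.16% lower, 2.91% in all. At an unadjusted p under 0.05 the enzymes counted 9 of 18 higher and 0 lower, where 11.6% of all tested genes were higher. In 9 of the 18 every M3-CKO library lay above every Ctrl library, where 13.7% of all tested genes did. Groups without overlap in either direction made up 15 of the 36 members and 27.1% of all tested genes. The summed level of the 18 was 1099, 1149 and 923.9 CPM in Ctrl and 1628, 1518 and 1735 CPM in M3-CKO, a ratio of the means of 1.54. The 18 members outside sterol synthesis had a median of 0.03, with 9 positive and 9 negative.

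**Figure D1:**
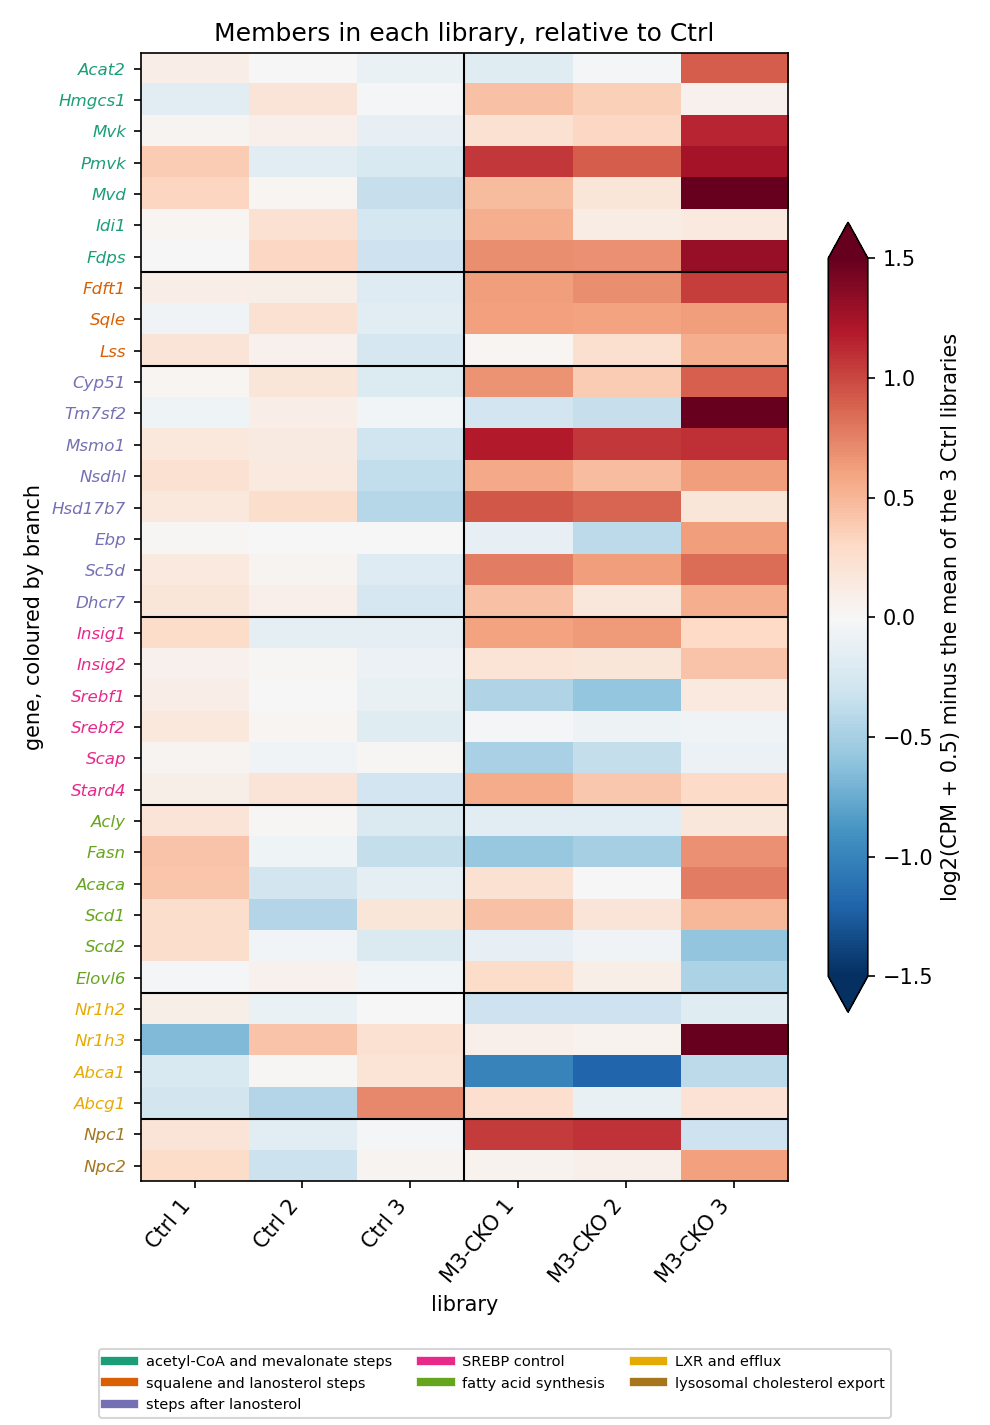
Each row is 1 of the 36 genes and each column 1 library. Colour gives log2(CPM + 0.5) minus the mean of the 3 Ctrl libraries, with the scale limited to 1.5 in both directions, and black lines separate branches and genotypes. Sterol synthesis rows are red across the M3-CKO columns for Pmvk, Fdft1, Sqle, Cyp51, Msmo1 and Sc5d, while Tm7sf2, Mvd, Acat2 and Fasn are red mainly in M3-CKO replicate 3.

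Of the 3 calls, those of Pmvk and Sc5d were close to the threshold (edgeR adjusted p = 0.049 for both) and that of Msmo1 less so (0.028). All 3 rested on all but 1 of the libraries. None of the 3 was called by edgeR without any single one of Ctrl replicates 1, 2 and 3 or M3-CKO replicates 1 and 2, where adjusted p ran from 0.092 to 0.22 while log2 fold changes stayed between 0.65 and 1.30. In those fits edgeR called between 0 and 18 genes of the whole table. The DESeq2 Wald test called 7 of the 18 enzymes higher (Pmvk, Fdps, Fdft1, Sqle, Cyp51, Msmo1 and Sc5d) and limma-voom called 1 (Msmo1). Over all tested genes DESeq2 called 6.05% higher and 4.31% lower (10.4% in all), and limma-voom 1.2% higher and 1.03% lower (2.23% in all). Without M3-CKO replicate 3 edgeR called 7 of the 18 higher and 0 lower (Pmvk, Fdft1, Sqle, Cyp51, Msmo1, Hsd17b7 and Sc5d), in a fit that called 13.7% of all tested genes higher, and the median was 0.44 with 15 of 18 positive.

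**Figure D2:**
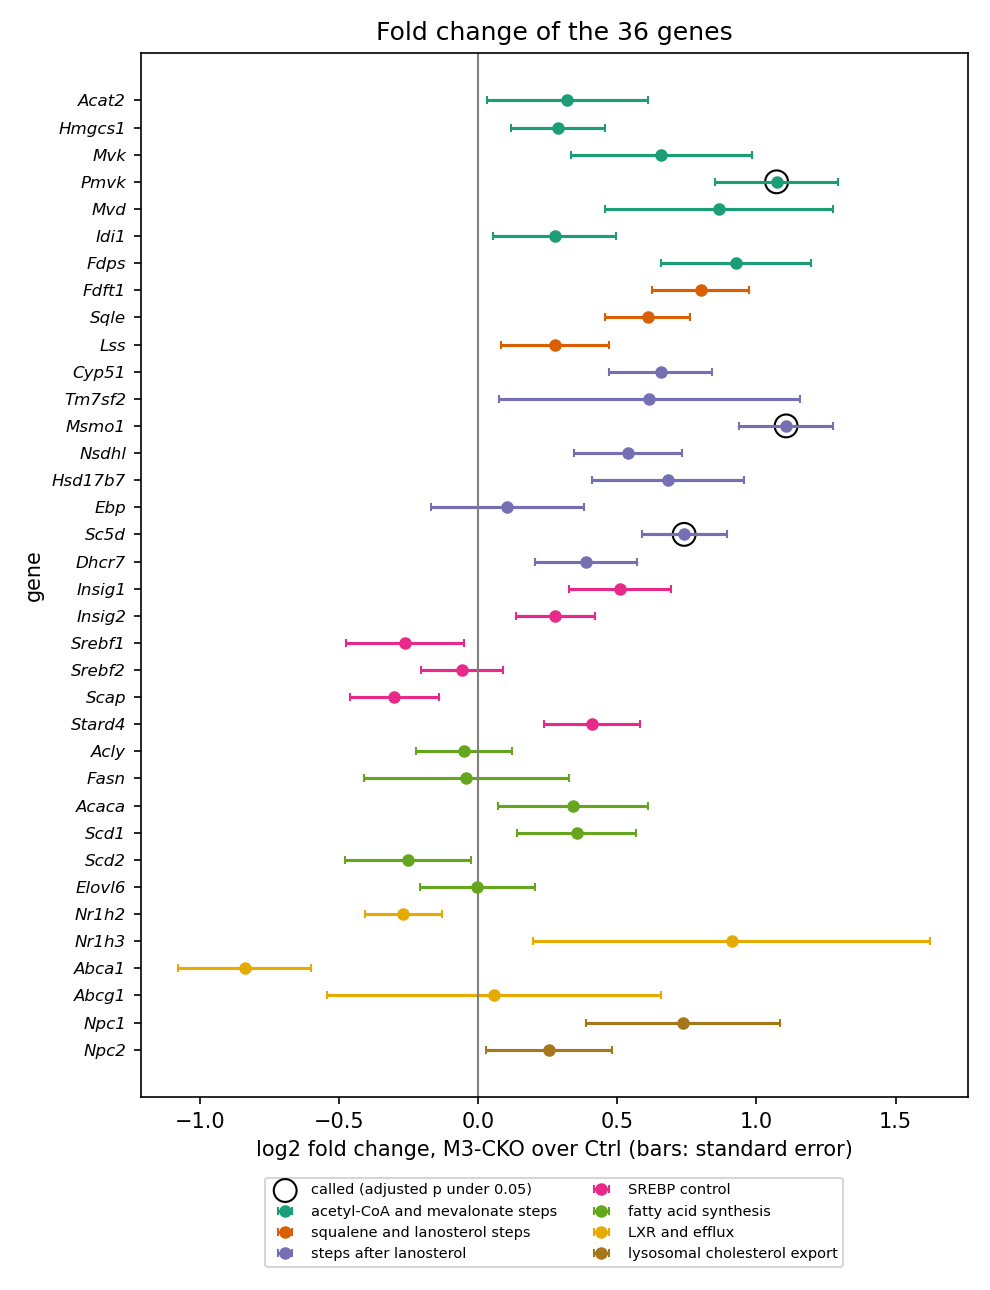
Points give the log2 fold change of M3-CKO over Ctrl for the 36 genes, grouped and coloured by branch, and bars its standard error. Black rings mark the 3 called genes, Pmvk, Msmo1 and Sc5d, and all 18 enzymes from Acat2 to Dhcr7 lie to the right of 0.

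The first steps run from acetyl-CoA to farnesyl pyrophosphate, and of their 7 genes Pmvk rose and the other 6 were not called. Pmvk encodes phosphomevalonate kinase, which adds the second phosphate to mevalonate. Its level was 28.4, 19.3 and 18.4 CPM in Ctrl and 45.8, 41.2 and 52.2 CPM in M3-CKO, a rise of 1.07 on the log2 scale (SE 0.22, adjusted p = 0.049). All M3-CKO libraries were above all Ctrl libraries. Fdps, which makes farnesyl pyrophosphate, had 13.8, 17.0 and 10.9 CPM in Ctrl and 22.4, 22.4 and 34.5 CPM in M3-CKO (log2 fold change 0.93, SE 0.27, adjusted p = 0.11). The groups of Fdps did not overlap, and M3-CKO replicate 3 was the highest library.

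Hmgcs1, the synthase that makes HMG-CoA, had 193.2, 245.6 and 210.9 CPM in Ctrl and 291.4, 276.9 and 224.7 CPM in M3-CKO. Its groups overlapped through M3-CKO replicate 3, and it was not called (log2 fold change 0.29, SE 0.17, adjusted p = 0.39). The isomerase gene Idi1 had a log2 fold change of 0.27 (SE 0.22). Mvk, mevalonate kinase, had 7.21, 7.40 and 6.40 CPM in Ctrl and 8.30, 8.79 and 16.1 CPM in M3-CKO, and Mvd, mevalonate pyrophosphate decarboxylase, had 10.5, 8.46 and 6.40 CPM in Ctrl and 11.7, 9.47 and 25.0 CPM in M3-CKO. Acat2, the cytosolic thiolase that joins 2 acetyl-CoA, had between 39.4 and 45.3 CPM in Ctrl and 37.4, 42.0 and 79.7 CPM in M3-CKO. The excess of Mvd and Acat2 in M3-CKO was mostly that of replicate 3: with and without it, log2 fold changes were 0.87 and 0.32 for Mvd, 0.66 and 0.28 for Mvk, and 0.32 and -0.10 for Acat2.

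Fdft1 and Sqle, the first enzymes committed to sterols, were higher in each M3-CKO library than in any Ctrl library but missed the threshold. Fdft1, squalene synthase, had 54.4, 54.2 and 44.6 CPM in Ctrl and 78.6, 83.0 and 105.2 CPM in M3-CKO (log2 fold change 0.80, SE 0.17, adjusted p = 0.057). Sqle, squalene epoxidase, the first oxygenase of the pathway, had 66.5, 81.2 and 61.3 CPM in Ctrl and 105.9, 105.6 and 107.2 CPM in M3-CKO (log2 fold change 0.61, SE 0.15, adjusted p = 0.079). The M3-CKO libraries agreed closely for Sqle, with an SD of 0.865 CPM against 10.3 CPM in Ctrl. Lss, which closes the ring to lanosterol, had 57.7 to 78.7 CPM in Ctrl and 70.1 to 100.6 CPM in M3-CKO, with overlapping groups (log2 fold change 0.28, SE 0.19). When no filter on low counts was applied, edgeR called Fdft1 (adjusted p = 0.044) but not Sqle (adjusted p = 0.10). Both Fdft1 and Sqle were called by DESeq2 (adjusted p = 0.0031 and 0.016). EdgeR called both without M3-CKO replicate 3 (adjusted p = 0.011 and 0.019), in a fit that called 13.7% of all tested genes higher. Neither was called by limma-voom (adjusted p = 0.066 and 0.082) or by edgeR without any single one of the other libraries.

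After lanosterol, the enzymes that strip methyl groups from the ring and place its double bonds held the other called members. Msmo1, the oxidase that starts removal of the methyl groups at carbon 4, had 150.7, 148.8 and 110.2 CPM in Ctrl and 309.1, 283.0 and 290.0 CPM in M3-CKO, a ratio of the means of 2.15 (log2 fold change 1.11, SE 0.17, adjusted p = 0.028). The lowest M3-CKO library thus lay far above the highest Ctrl library. Sc5d, the desaturase that sets the double bond at carbon 5, had 152.6, 142.7 and 121.3 CPM in Ctrl and 234.9, 213.8 and 247.2 CPM in M3-CKO, a ratio of 1.67 (log2 fold change 0.74, SE 0.15, adjusted p = 0.049). M3-CKO replicate 3 lay with its group for both genes: without it the log2 fold changes were 1.11 and 0.69.

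Cyp51, which removes the methyl group at carbon 14, had 114.1, 126.3 and 96.8 CPM in Ctrl and 178.0, 145.3 and 207.9 CPM in M3-CKO (log2 fold change 0.66, SE 0.18, adjusted p = 0.10). Nsdhl, the partner dehydrogenase of Msmo1, had 45.4, 42.7 and 29.8 CPM in Ctrl and 57.4, 53.6 and 60.2 CPM in M3-CKO (log2 fold change 0.54, SE 0.19, adjusted p = 0.17). For both genes the groups did not overlap. Hsd17b7, the keto reductase that completes removal at carbon 4, had 31.6, 33.9 and 20.8 CPM in Ctrl and 54.3, 52.1 and 31.9 CPM in M3-CKO (log2 fold change 0.68, SE 0.27, adjusted p = 0.21). M3-CKO replicate 3 lay among the Ctrl libraries for Hsd17b7. Without this library, the one that lay apart from its group, edgeR called Hsd17b7 (log2 fold change 0.88, adjusted p = 0.018). That fit called 25% of all tested genes, 13.7% higher.

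The remaining enzymes of this stretch went with replicate 3 or moved little. Tm7sf2, a sterol reductase of the step after Cyp51, had 6.66, 7.51 and 6.74 CPM in Ctrl and 5.60, 5.36 and 21.1 CPM in M3-CKO, so its log2 fold change of 0.62 (SE 0.54) became -0.35 without M3-CKO replicate 3. Ebp, the sterol isomerase, had 27.6 to 28.2 CPM in Ctrl and 25.6, 21.0 and 43.0 CPM in M3-CKO, with a log2 fold change of 0.10 that became -0.26. Dhcr7, the last reductase on the way to cholesterol, had 49.0, 45.7 and 36.2 CPM in Ctrl and 58.7, 48.8 and 63.5 CPM in M3-CKO (log2 fold change 0.39, SE 0.18, adjusted p = 0.29). Acat2, Tm7sf2 and Ebp were the only enzymes of the 18 whose sign changed without M3-CKO replicate 3. Over the 18 enzymes, 14 were higher in M3-CKO replicate 3 than in the mean of replicates 1 and 2.

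**Figure D3:**
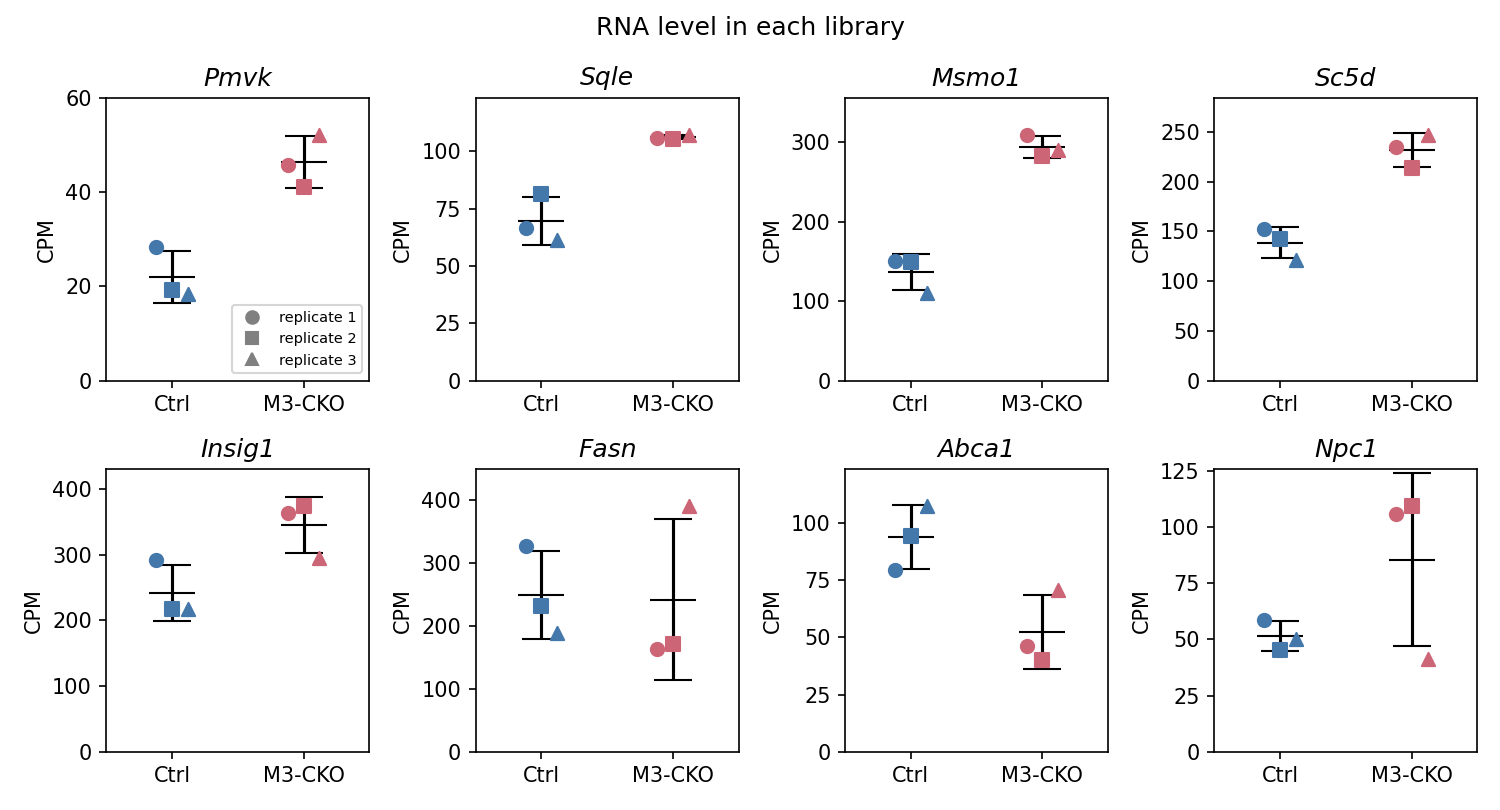
CPM of 8 genes in each library, with symbols for the replicate number, long bars for the mean and whiskers for the SD (n = 3 per group). Pmvk, Sqle, Msmo1, Sc5d and Insig1 have all M3-CKO points above all Ctrl points and Abca1 all below, while replicate 3 lies opposite to replicates 1 and 2 of M3-CKO for Fasn and Npc1.

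As a description, the DNA around the start sites of the members was read for some of the letters that SREBP and its usual partners bind. RefSeq promoter windows on GRCm38.p6, from 250 bases before to 50 after each start, were found for 28 of the 36 genes, 15 of them sterol enzymes. Both strands were searched, and a gene with several starts counted once. Only exact letters inside these windows were counted, so sites with variant letters or outside the windows were missed. A window without a match may therefore still belong to a gene that SREBP binds. The letters CCAAT, the box of NF-Y, a partner of SREBP, lay in 14 of the 15 sterol enzyme promoters (93.3%), against 42.7% of the 10570 tested genes with a window. In the 13 other members with a window it lay in 7. The GC box letters GGGCGG also lay in 14 of the 15, against 67.2% of tested genes. The sterol response element core TCACNCCAC lay in 1, Hmgcs1, against 1.41% of tested genes. Its match there was the classical form TCACCCCAC, which the core includes and which 0.662% of tested genes held. No member window held 2 exact AGGTCA letters in the same direction with 4 bases between them, a form of the direct repeat that LXR binds. Only 0.00946% of tested genes held it, so its absence from 28 windows tells nothing about LXR binding.

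The 250 bases before the start are shown for the called genes Msmo1, which held 3 CCAAT boxes, and Sc5d, which held 1. They are also shown for Hmgcs1, the member whose window matched the sterol response element core. Capitals mark CCAAT or its reverse complement ATTGG and, in Hmgcs1, the sterol response element. Each runs 5′ to 3′ in the direction of the gene: Msmo1 at chr8:64733579-64733828 (minus strand), Sc5d at chr9:42264301-42264550 (minus strand) and Hmgcs1 at chr13:119690101-119690350 (plus strand).
Msmo1: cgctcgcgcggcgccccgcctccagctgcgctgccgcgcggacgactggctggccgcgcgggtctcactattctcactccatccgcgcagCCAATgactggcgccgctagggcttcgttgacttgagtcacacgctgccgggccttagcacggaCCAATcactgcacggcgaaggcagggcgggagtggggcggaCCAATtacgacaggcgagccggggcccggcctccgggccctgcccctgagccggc
Sc5d: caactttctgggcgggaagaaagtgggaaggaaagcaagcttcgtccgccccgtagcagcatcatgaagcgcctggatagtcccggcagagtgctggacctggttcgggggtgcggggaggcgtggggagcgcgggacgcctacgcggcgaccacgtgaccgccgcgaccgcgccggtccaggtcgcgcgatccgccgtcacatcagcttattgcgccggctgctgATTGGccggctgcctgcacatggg
Hmgcs1: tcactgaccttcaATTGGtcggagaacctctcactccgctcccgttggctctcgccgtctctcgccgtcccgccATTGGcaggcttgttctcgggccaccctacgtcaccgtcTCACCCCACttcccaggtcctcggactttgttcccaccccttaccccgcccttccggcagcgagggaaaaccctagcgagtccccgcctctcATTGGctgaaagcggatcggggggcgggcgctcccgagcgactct
The boxes of Msmo1 began 160, 96 and 55 bases before the start, that of Sc5d 24 bases before it, and the sterol response element of Hmgcs1 137 bases before it. Hmgcs1 held 3 boxes before its start and 1 after it. Whether such letters go with the size of a change was not tested.

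Of the 6 SREBP control genes, 3 had a positive and 3 a negative log2 fold change. None of the 6 was called by edgeR, limma-voom or DESeq2, with 2 at an unadjusted p under 0.05 by edgeR, both higher. Insig1, which retains SCAP in the endoplasmic reticulum and is itself an SREBP target, had 291.1, 217.7 and 217.1 CPM in Ctrl and 363.8, 373.7 and 295.5 CPM in M3-CKO. Every M3-CKO library lay above every Ctrl library, by a narrow margin for replicate 3 (log2 fold change 0.51, SE 0.18, adjusted p = 0.17). Stard4, a carrier of cholesterol between membranes, had 87.2, 93.8 and 66.7 CPM in Ctrl and 120.4, 108.4 and 100.2 CPM in M3-CKO (log2 fold change 0.41, SE 0.17, adjusted p = 0.24). Insig2, the second INSIG, had 111.6 to 123.8 CPM in Ctrl and 134.5 to 160.0 CPM in M3-CKO, also without overlap (log2 fold change 0.28, SE 0.14).

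Srebf2, the SREBP that mainly drives sterol genes, had 266.5, 244.0 and 211.3 CPM in Ctrl and 234.9, 227.6 and 230.2 CPM in M3-CKO (log2 fold change -0.06, SE 0.15, adjusted p = 0.86). Its M3-CKO libraries lay within the Ctrl range. Srebf1, which mainly drives fatty acid synthesis, had 152.0, 142.4 and 130.4 CPM in Ctrl and 103.2, 94.3 and 156.1 CPM in M3-CKO (log2 fold change -0.26, SE 0.21, adjusted p = 0.54). Scap, the escort, had 59.4, 55.9 and 58.4 CPM in Ctrl and 41.3, 45.0 and 54.6 CPM in M3-CKO (log2 fold change -0.30, SE 0.16, adjusted p = 0.34). M3-CKO replicate 3 had the highest Srebf1 of all 6 libraries. Without it, edgeR called Insig1 higher (log2 fold change 0.60, adjusted p = 0.024) and Srebf1 and Scap lower (-0.52 and -0.43, adjusted p = 0.017 and 0.041), in a fit that called 25% of all tested genes. These counts measure transcripts, while SREBP activity is set by cutting of the protein, which was not measured.

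All 6 genes of fatty acid synthesis had overlapping groups, 0 were called by edgeR, DESeq2 or limma-voom, and 0 had an unadjusted p under 0.05 in any of them. The median log2 fold change was -0.02. Fasn, fatty acid synthase, had 327.0, 232.3 and 189.8 CPM in Ctrl and 164.2, 172.0 and 391.0 CPM in M3-CKO (log2 fold change -0.04, SE 0.37, adjusted p = 0.96). M3-CKO replicates 1 and 2 were the lowest of the 6 libraries and replicate 3 the highest, and without replicate 3 the log2 fold change was -0.58 (adjusted p = 0.084), with 0 of the 6 genes called. Fasn was called lower by edgeR without replicate 3 in both groups (-0.74, adjusted p = 0.032), in a fit that called 19.2% of all tested genes. Scd1, the stearoyl-CoA desaturase that makes oleate, had 366.8, 226.4 and 346.3 CPM in Ctrl and 416.6, 350.5 and 432.9 CPM in M3-CKO (log2 fold change 0.35, SE 0.21, adjusted p = 0.40).

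Scd2, the second desaturase, had 4553, 3669 and 3243 CPM in Ctrl and 3478, 3648 and 2502 CPM in M3-CKO (log2 fold change -0.25, SE 0.23). It was the most abundant member in counts, without correction for transcript length. Acly, which supplies cytosolic acetyl-CoA, had 84.8 to 112.2 CPM in Ctrl and 87.5 to 111.0 CPM in M3-CKO. Acaca, acetyl-CoA carboxylase, had 31.4 to 51.1 CPM in Ctrl and 38.0 to 65.6 CPM in M3-CKO. Elovl6, an elongase, had 73.2 to 79.3 CPM in Ctrl and 54.2 to 91.4 CPM in M3-CKO. Acly and Elovl6 had log2 fold changes of -0.05 and -0.00 (SE 0.17 and 0.21), and Acaca one of 0.34 (SE 0.27).

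Set side by side, the median change of a branch relative to the Ctrl mean was 0.55, 0.37 and 0.86 on the log2 scale in M3-CKO for the 18 sterol enzymes. For the 6 fatty acid genes it was 0.05, -0.03 and 0.34, and for the 6 SREBP control genes 0.09, 0.05 and 0.22. The Ctrl libraries ranged from -0.22 to 0.10 for the sterol enzymes and from -0.17 to 0.26 for the fatty acid genes. The median of the sterol enzymes in each M3-CKO library thus lay above the range of the Ctrl medians, although 9 of the 18 enzymes had overlapping groups. That of the fatty acid genes did so only in replicate 3.

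**Figure D4:**
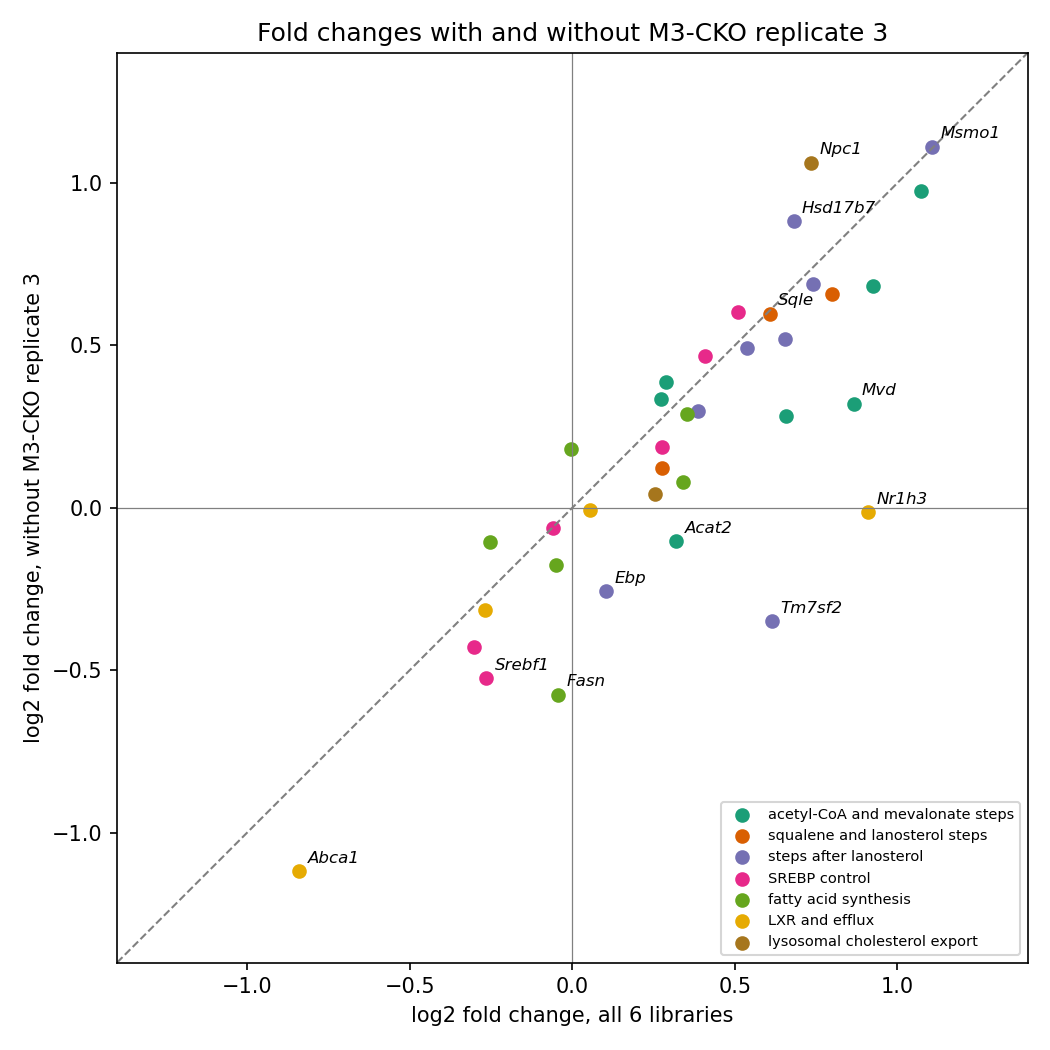
Each point is 1 of the 36 genes, with its log2 fold change over all 6 libraries on the x axis and without M3-CKO replicate 3 on the y axis; the dashed line marks equal values. Msmo1 and Sqle lie on the line, Npc1 and Hsd17b7 above it, and Tm7sf2, Nr1h3, Fasn, Mvd, Acat2 and Ebp below it.

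On the efflux side, Abca1 was lower in each M3-CKO library than in any Ctrl library. Abca1, the transporter that loads cholesterol onto apolipoprotein A1 and a classical LXR target, had 79.3, 94.3 and 107.1 CPM in Ctrl and 46.1, 40.3 and 70.5 CPM in M3-CKO. Its edgeR log2 fold change was -0.84 (SE 0.24, adjusted p = 0.10) and was not called, while DESeq2 called it (adjusted p = 0.025), as did edgeR without M3-CKO replicate 3 (-1.12, adjusted p = 0.0026). Of all tested genes, 8.89% had an unadjusted p under 0.05 and were lower, and in 13.5% all M3-CKO libraries lay below all of Ctrl. DESeq2 called 4.31% of all tested genes lower, and edgeR without M3-CKO replicate 3 called 11.3% lower. Nr1h2, the LXR beta receptor, had 77.2, 67.8 and 72.4 CPM in Ctrl and 58.4, 58.4 and 63.6 CPM in M3-CKO, without overlap (log2 fold change -0.27, SE 0.14, adjusted p = 0.33). Nr1h3, the LXR alpha receptor, and Abcg1, an exporter to high density lipoprotein, were at or below 3.86 CPM in every library, and their log2 fold changes of 0.91 and 0.06 had SEs of 0.71 and 0.60. Of these 4 genes 0 were called by edgeR or limma-voom, with 1 at an unadjusted p under 0.05 in each.

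Of the lysosomal exporters, Npc1 differed between the M3-CKO libraries more than between genotypes. Npc1, the membrane protein that passes cholesterol out of lysosomes, had 58.5, 45.5 and 50.0 CPM in Ctrl and 105.8, 109.2 and 41.2 CPM in M3-CKO (log2 fold change 0.73, SE 0.35, adjusted p = 0.29). M3-CKO replicates 1 and 2 were above every Ctrl library and replicate 3 below every one. Without replicate 3, the library that went the other way, the log2 fold change was 1.06 (edgeR adjusted p = 0.0017). That fit called 25% of all tested genes, 13.7% higher. Npc2, its soluble partner, had 303.0 to 457.6 CPM in Ctrl and 393.3 to 578.6 CPM in M3-CKO (log2 fold change 0.25, SE 0.23). Neither was called by edgeR, DESeq2 or limma-voom with all 6 libraries; 0 had an unadjusted p under 0.05 by edgeR or limma-voom and 1 by DESeq2.

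Genes of the same and neighbouring pathways outside the 36 were read from a list of 100, of which 99 had a row and 94 were tested. In edgeR 2 were called higher and 3 lower, DESeq2 called 6 and 7, and the median log2 fold change was 0.03. Over all tested genes edgeR called 1.74% higher and 1.16% lower, and DESeq2 6.05% and 4.31%. Without M3-CKO replicate 3 edgeR called 16 higher and 20 lower, in a fit that called 13.7% of all tested genes higher and 11.3% lower, and the median was -0.18. In the 12 other sterol and prenyl genes 0 were called by edgeR or limma-voom and 1 by DESeq2 (lower), with 3 at an unadjusted p under 0.05 by edgeR, 3 by limma-voom and 4 by DESeq2. Over all tested genes these shares were 20.5%, 20.1% and 21.6%. The median of the 12 was 0.03, and without M3-CKO replicate 3 it was -0.21, with 1 called higher and 3 lower.

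Among the 94 genes 5 were called, 3 from the list of other fatty acid and glycerolipid synthesis genes (Lpin2, Agpat2 and Acsl1) and 2 from that of fatty acid oxidation (Ppargc1a and Cpt1a). Lpin2, a phosphatidate phosphatase, rose from 156.6 ± 19.8 to 331.5 ± 32.1 CPM (SD, n = 3; log2 fold change 1.08, SE 0.16, edgeR adjusted p = 0.027). Agpat2, an acyltransferase that makes phosphatidic acid, rose from 36.4 ± 5.35 to 86.9 ± 24.9 CPM (1.25, SE 0.23, edgeR adjusted p = 0.038). Acacb, the carboxylase whose product restrains fatty acid entry into mitochondria, had 4.98 ± 2.31 CPM in Ctrl and 14.9 ± 4.01 CPM in M3-CKO and was not called (1.58, SE 0.38, edgeR adjusted p = 0.070). In the other direction, Ppargc1a, a coactivator of mitochondrial genes, fell from 45.1 ± 1.36 to 16.1 ± 2.40 CPM (-1.49, SE 0.18, edgeR adjusted p = 0.019). Cpt1a, which admits fatty acids to mitochondria, fell from 106.9 ± 13.7 to 53.8 ± 7.01 CPM (-0.99, SE 0.17, edgeR adjusted p = 0.034), and Acsl1, an acyl-CoA synthetase, from 173.1 ± 16.8 to 98.6 ± 9.46 CPM (-0.81, SE 0.15, edgeR adjusted p = 0.038). For these 5 called genes the groups did not overlap, and each call was lost without any single one of the libraries other than M3-CKO replicate 3.

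Of the 18 fatty acid oxidation genes tested, 2 fell and 0 rose, and 14 had a negative log2 fold change, with a median of -0.24. DESeq2 called 2 lower and 1 higher. Without M3-CKO replicate 3 the counts were 8 lower and 2 higher, with a median of -0.53, in the fit that called 25% of all tested genes. For the 28 other fatty acid and glycerolipid synthesis genes that fit gave 6 higher and 5 lower. In the 12 other sterol control genes, the 17 of lipoprotein uptake and cholesterol handling and the 7 other LXR and RXR genes, 0 were called by edgeR or limma-voom. DESeq2 called 0, 1 and 0 of them, and 3, 6 and 1 had an unadjusted p under 0.05 by edgeR, as did 20.5% of all tested genes. Without M3-CKO replicate 3 edgeR called 3 higher and 2 lower, 3 higher and 1 lower, and 1 higher and 1 lower. With all 6 libraries their medians were 0.06, 0.16 and -0.24.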

How the data were processed

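RNA-seq libraries of 3 Ctrl and 3 M3-CKO organoid samples were used; the 4 MeRIP libraries were not analysed here. The authors deposited raw counts per gene as whole numbers. The submitters' processing notes name Trim Galore, HISAT2, featureCounts and the build mm39. The sources used here do not state versions, annotation, strand setting or how multiply mapped reads were treated, so counts of overlapping, antisense or near-identical genes (Scd1 and Scd2 are paralogs) are uncertain.

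Counts were tested with edgeR 4.0.16 in R 4.3.3: filterByExpr, TMM scaling, glmQLFit and glmQLFTest over all 13528 kept genes, two-sided, with no covariate. A gene was called where its Benjamini-Hochberg adjusted p was below 0.05; adjusted p-values are those of edgeR except where DESeq2 or limma is named. The SE is the log2 fold change over the square root of F. CPM uses TMM-scaled library sizes. Precision is limited by depth and by 3 libraries a group, for which an exact permutation test cannot go below p = 0.1. Simulated data with known changes were used to test the edgeR code. Alternatives used DESeq2 1.42.0, limma 3.58.1 (voom), other scaling, filters, a replicate block and left-out libraries.

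The members and lists were chosen with earlier results of these data known, so no list was tested as such. Every library value is given for members that were called or had an unadjusted p under 0.05 and for 10 fixed members. Outside the members, called genes and the 3 lowest p in each direction are named. Promoter sequences are RefSeq's on GRCm38.p6, matched by symbol, while the counts are on mm39. Some genes outside the members are not reported here.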

Additional observations from a re-analysis of the deposited data

How the results depend on the processing

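The count of called members depended on the test and on single libraries. With all 6 libraries it was 3 higher and 0 lower under DESeq2 size factors, under library size alone, with a filter of at least 10 CPM in 3 libraries and with the 20 most abundant genes left out. Without a low-count filter it was 4 higher, and 740 genes of the whole table were called in place of 393. The DESeq2 Wald test called 7 members higher and 1 lower (1402 genes in all), and limma-voom called 1 higher. With M3-CKO replicates 1 and 2 summed, 0 members and 14 genes were called. Leaving out single libraries gave 0 to 9 members higher, 0 to 3 lower and 0 to 3483 genes in all; the highest values are without M3-CKO replicate 3. Without replicate 3 in both groups 6 members were called higher, 3 lower (Abca1, Fasn and Srebf1) and 2624 genes in all.

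Deviations from the group means of same-numbered libraries correlated at -0.03, 0.02 and -0.10. With 3 libraries a group, and M3-CKO replicate 3 apart from the others, these values cannot decide whether replicate numbers pair the libraries. With the replicate number as a block, 0 members and 20 genes were called, and 0 of the 3 member calls held (adjusted p 0.082 to 0.15). In these deviations no library correlated best with the library of the same number in the other group.

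With single libraries left out, the median log2 fold change ran from 0.44 to 0.71 for the sterol enzymes, from 0.04 to 0.17 for the SREBP control genes and from -0.29 to 0.25 for the LXR and efflux genes. Without replicate 3 in both groups these medians were 0.35, -0.0016 and -0.66. With a filter of at least 10 CPM, which drops Nr1h3 and Abcg1, the LXR median was -0.55. All 18 sterol enzymes were positive in each fit that kept M3-CKO replicate 3 (16 of 16 with the stricter filter), and 15 of 18 in both fits without it.

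Sign changes were limited to genes with small or library-dependent changes. Elovl6 was 0.0014 with the stricter filter and 0.0076 without the 20 most abundant genes. Acly was 0.012 and Fasn 0.17 with M3-CKO replicates 1 and 2 summed, and Me1 was -0.16 with limma-voom and -0.18 with the replicate block. With single libraries left out the ranges were -0.15 to 0.024 for Srebf2, -0.18 to 0.052 for Acly, -0.58 to 0.20 for Fasn, -0.25 to 0.78 for Abcg1, -0.17 to 0.18 for Elovl6, -0.10 to 0.52 for Acat2, -0.35 to 0.94 for Tm7sf2, -0.26 to 0.31 for Ebp, -0.013 to 1.24 for Nr1h3 and -0.68 to 0.29 for Me1. Without replicate 3 in both groups Acat2 was -0.16, Tm7sf2 -0.37, Ebp -0.26, Elovl6 0.16 and Me1 -0.73. The cause of these shifts was not tested. At this depth, Nr1h3 and Abcg1 rest on few reads.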

Other observations

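Me1, the malic enzyme that supplies NADPH for fatty acid synthesis, showed the same order of libraries as Fasn within M3-CKO. It had 573.3, 491.0 and 479.1 CPM in Ctrl and 319.0, 323.8 and 928.8 CPM in M3-CKO (replicates in order). M3-CKO replicates 1 and 2 were below every Ctrl library and replicate 3 above every one. The log2 fold change was 0.03 (SE 0.41, edgeR adjusted p = 0.98) with all 6 libraries. It was -0.68 (edgeR adjusted p = 0.0077) without M3-CKO replicate 3, in a fit that called 25% of all tested genes. Me1 was singled out because of these values.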
